A study of Mus musculus with 4 samples.

Results

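Myoblast-only islands are stretches of chromatin that were listed as enriched for the histone variant macroH2A in C2C12 myoblasts and that no listed island of C2C12 myotubes touched by even 1 bp. They were taken from the day 0 list on chromosomes 1 to 19 without chromosome 15, at widths of 10 to 50 kb. There were 969 of them, out of 8372 day 0 islands on the same chromosomes and of the same widths (11.6%, the share that the rule itself fixes) and out of 30016 day 0 islands in all. They were selected on the measured positions and widths in both lists, by the absence of a day 5 island, so that absence is a definition and not a result. The values below describe the islands and carry no test.

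C2C12 is a mouse muscle precursor line, grown as dividing myoblasts in serum-rich medium and brought to fuse into myotubes on coated plates by changing dense cultures to medium with little horse serum. Chromatin immunoprecipitation with an antibody to macroH2A, followed by sequencing, was done on 1 library from myoblasts at day 0 of that differentiation medium and 1 library from myotubes at day 5. Both groups are the same unmodified line, and the 2 input samples were not used here. The spread between cultures is unknown because each group is a single library, and each difference between days is a difference between these libraries.

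MacroH2A replaces the core histone H2A in some nucleosomes and carries a large globular macrodomain on a linker outside the nucleosome core. It occupies broad domains rather than sharp peaks, is known for enrichment on the inactive X chromosome and over silent genes, and one of its splice forms binds ADP-ribose. In muscle cells the splice form that binds ADP-ribose becomes more abundant as myoblasts differentiate. The labels do not say which form the antibody sees, and the antibody is named only as one to macroH2A.

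Each list gives, for every island, its position and the number of immunoprecipitated reads in it. The whole day 0 list held 24365482 reads and the whole day 5 list 29619426 reads, which are sums inside islands and not library depths. Read density, in reads per kb of island, had a lower edge of 49.5 at day 0 and 55.0 at day 5, and the list medians stood at a ratio of 1.11. Intervals are at 95%, exact (Clopper-Pearson) for shares and from binomial order statistics for medians. They cover counting error only, as if islands were independent, which neighbouring islands are not. Positions are mm9, counted from 1. Genes at these positions are not named, because the gene table used here was of another genome build. In cells pooled for immunoprecipitation, fewer cells with macroH2A at a site and less macroH2A per cell cannot be told apart.

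Myoblast-only islands were short domains at the lower end of the width range. They covered 13.3 Mb and held 906486 reads, which was 4.17% of the covered length and 3.72% of the island reads of the whole day 0 list. Their median width was 12.6 kb (interval 12 to 12.6), with 5% of them above 21.0 kb and the widest at 42.6 kb. The 7403 day 0 islands of the same chromosomes and width limits that did meet a day 5 island had a median width of 15 kb, and 5% of those were above 37.2 kb.

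The share of myoblast-only islands dropped with width at each step. It was 16.6% (15.5 to 17.8%) of 4169 islands from 10 to under 15 kb, and 10.6% (9.29 to 12%) of 1999 islands from 15 to under 20 kb. From 20 to under 30 kb it was 3.85% (2.90 to 4.99%), with 54 of 1404 islands. Of the 800 islands from 30 to 50 kb, 9 were myoblast-only (1.13%, 0.516 to 2.12%). A wider island has more sequence that a day 5 island can touch, and the part of that in these shares was not tested.

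The edges of the rule cut through a continuous range. Just inside the lower width limit, at 10.2 kb, 161 islands were myoblast-only and 608 met a day 5 island. The 161 had a median of 65.2 reads per kb. Just outside that limit, 196 islands of 9.6 kb without a day 5 overlap had a median of 65.9 reads per kb. From 5 to under 10 kb, 32.5% of 10607 day 0 islands had no day 5 overlap. Above the upper limit the same chromosomes held 356 day 0 islands. A single one of these (0.281%) had no day 5 overlap, 65.4 kb wide with 97.8 reads per kb. On the overlap side, 18 myoblast-only islands abutted a day 5 island with no base between them, at a median of 71.2 reads per kb. A further 26 islands of the same widths were left out for an overlap of one 600 bp step of the lists' grid, at a median of 64.9 reads per kb.

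The 5 widest myoblast-only islands were also the 5 with the most reads. The first, at 90214201 to 90256800 on chromosome 1, spanned 42.6 kb and held 2997 reads, or 70.4 reads per kb (67.9 to 72.9). Its nearest day 5 island was 13.2 kb away on the right and 230 kb away on the left, and the next myoblast-only island was 1925 kb away. The second, at 89358601 to 89395800 on chromosome 3, spanned 37.2 kb and held 2788 reads, with day 5 islands 6.6 kb and 16.2 kb from its ends. Another myoblast-only island lay 2.4 kb from it, and together they filled 81.0% of a 60 kb stretch between 2 day 5 islands. These first islands thus had opposite surroundings, one alone among its kind and one with a partner at its edge.

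The next of the widest were parts of local groups. On chromosome 3 from 21419401 to 21453600 an island of 34.2 kb held 2516 reads, and another myoblast-only island began 1.8 kb from its end. On chromosome 10 from 83697001 to 83730000 an island of 33.0 kb held 2689 reads at 81.5 reads per kb (78.4 to 84.6). On chromosome 14 from 78507001 to 78539400 an island of 32.4 kb held 2409 reads, with another myoblast-only island 4.2 kb away. These 3 islands lie in windows described further on.

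Myoblast-only islands were less dense in reads than islands of the same widths that met a day 5 island. Their median was 67.3 reads per kb (66.8 to 67.7), against 73.7 (73.5 to 73.9) for the overlapping islands, a ratio of 0.913. The middle 90% ran from 59.5 to 78.2 reads per kb in the myoblast-only group and from 63.3 to 91.4 in the overlapping group, so the groups overlapped widely. Of the 969 islands, 834 (86.1%) were below the median of the overlapping islands and 33 (3.41%) were above their upper quartile of 79.6 reads per kb. The island with the median number of reads held 847, which gives a relative counting error of 3.44%, or about 2.31 reads per kb. Density and overlap both pass through the island caller, so the lower density is not independent of how the islands were chosen.

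**Figure D1:**
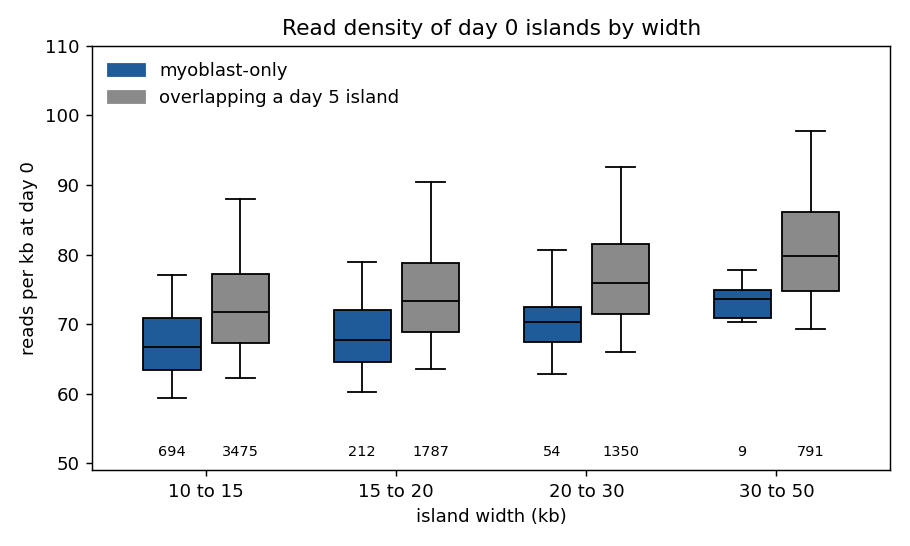
Reads per kb at day 0 (vertical axis, starting above 0) for myoblast-only islands and for day 0 islands overlapping a day 5 island, in 4 width classes in kb, with the number of islands under each box. Boxes span the quartiles with the median as a line, whiskers the 5th to 95th percentile. In all 4 classes the myoblast-only median is the lower one, from 66.7 against 71.8 in the narrowest class to 73.6 against 79.8 in the widest.

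The density gap was similar within width classes. The ratio of medians was 0.929 from 10 to under 15 kb, 0.923 from 15 to under 20 kb, 0.927 from 20 to under 30 kb and 0.922 from 30 to 50 kb. Myotube-only islands, the mirror group at day 5, had ratios of 0.930, 0.909, 0.908 and 0.906 to overlapping day 5 islands in these classes. Pooled over the classes they stood at 0.896, with 74.5 against 83.2 reads per kb, where the pooled ratio at day 0 was 0.913. Lower density was therefore seen for unshared islands at both days.

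The lists do not give reads at day 5 inside a myoblast-only island, so a missing day 5 island does not show that macroH2A was gone. Multiplied by the ratio of list medians, 1.11, the myoblast-only islands would have a median of 74.7 reads per kb on the day 5 scale. Of day 5 islands of 10 to 50 kb, 23.3% were below that median. The ratio comes from listed islands and not from library depths, and the lower edges of the lists also stand at 1.11. The scaled values therefore cannot show whether these islands would have been listed at day 5.

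The densest myoblast-only islands included a pair on chromosome 4. The first, from 119788801 to 119805600, held 1776 reads in 16.8 kb, or 106 reads per kb (100.9 to 110.7). The third, from 119712601 to 119722800, held 928 reads in 10.2 kb, or 91.0 reads per kb (85.2 to 97.0). Both exceeded the quartile range of the overlapping islands, and their nearest day 5 islands were 7.2 kb and 8.4 kb away.

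The others of the 5 densest lay on chromosomes 5, 9 and 18. The chromosome 5 island, from 111828001 to 111845400, had 94.0 reads per kb (89.5 to 98.7) and was 40.2 kb from a day 5 island. The chromosome 9 island, from 57921001 to 57943200, had 88.1 reads per kb (84.2 to 92.1), with the next myoblast-only island 3655 kb away. The chromosome 18 island, from 54500401 to 54521400, had 87.4 reads per kb (83.5 to 91.5). Only the first 2 of the 969 islands, on chromosomes 4 and 5, were above the 95th percentile of overlapping islands.

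Most myoblast-only islands lay within 20 kb of a myotube island. The median distance to the nearest day 5 island was 13.2 kb (12 to 15), about 1 island width. Of the 969, 261 (26.9%) had a day 5 island within 5 kb, 600 (61.9%) within 20 kb and 891 (92.0%) within 100 kb. A day 5 island lay within 10 kb on both sides of 85 of them (8.77%). The nearer day 5 island was on the left of 485, so neither side was favoured. The stretches between day 5 islands that held them had a median length of 84.6 kb (76.2 to 94.2). Myoblast-only islands filled a median of 17.9% of such a stretch.

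**Figure D2:**
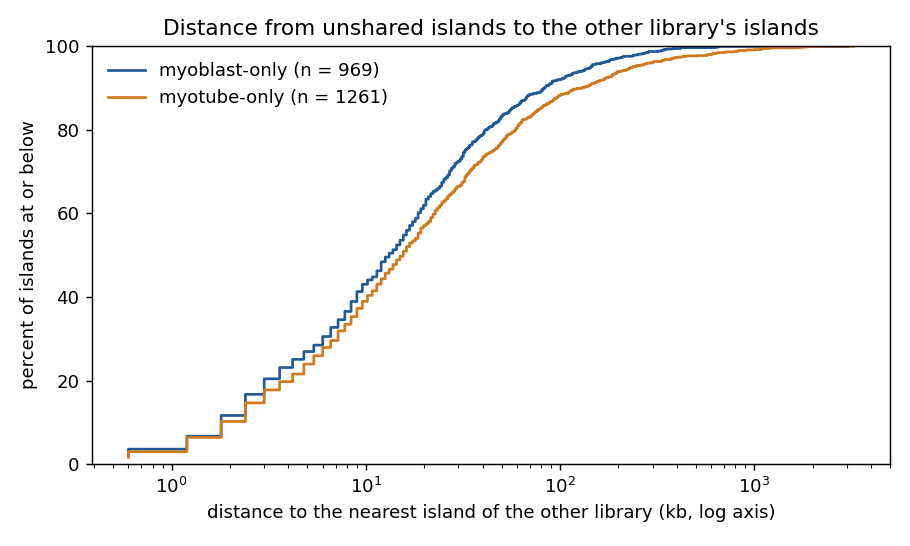
Cumulative percent of myoblast-only islands (n = 969) and myotube-only islands (n = 1261) by distance to the nearest island of the other library, in kb on a log axis; abutting islands at 0 kb are counted in the curves but lie off the axis. Both curves rise over the same range, with medians of 13.2 kb and 15.6 kb, and the myotube-only curve runs lower beyond 10 kb.

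The 1261 myotube-only islands of the same chromosomes and widths (13.8% of 9114 day 5 islands) were somewhat farther from the other map. Their median distance to a day 0 island was 15.6 kb (13.8 to 16.8), whose interval overlaps that of the myoblast-only islands. At large distances the intervals were apart. Within 200 kb lay 97.1% (95.9 to 98.1%) of myoblast-only and 93.8% (92.3 to 95.1%) of myotube-only islands. Within 500 kb the shares were 99.6% (98.9 to 99.9%) and 97.6% (96.6 to 98.4%). Beyond 200 kb lay 28 myoblast-only islands and 78 myotube-only islands, and beyond 500 kb 4 and 30.

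The day 5 island nearest to a myoblast-only island was usually one that other day 0 islands overlapped. That was so for 735 (75.9%, 73.0 to 78.5%), against 68.5% of all day 5 islands on these chromosomes. For the other 234 the nearest day 5 island was itself myotube-only. In 91 cases (9.39%) such a myotube-only island lay within 10 kb, so islands of the 2 days stood side by side without sharing a base.

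Distance to the day 5 map had little relation to read density. Islands within 5 kb of a day 5 island had a median of 67.5 reads per kb (66.7 to 68.5). The 78 islands beyond 100 kb had a median of 66.4 (64.6 to 68.1), and the Spearman correlation over the 969 islands was -0.11. Width was unrelated to distance, with a correlation of 0.0083. These islands share 1 library, and the correlations are descriptions.

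A few myoblast-only islands stood far from any day 5 island. The most isolated, at 75661201 to 75671400 on chromosome 3, spanned 10.2 kb and held 716 reads, or 70.2 reads per kb (65.1 to 75.5). Its nearest day 5 island was 3086 kb to the right and the other neighbour 5308 kb to the left. It was the only one more than 1 Mb away.

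The next 4 in isolation were all under 12 kb wide. On chromosome 7 from 136797001 to 136808400 an island of 711 reads was 656 kb from a day 5 island. On chromosome 14 from 60334201 to 60345600 one of 696 reads was 655 kb away, and on chromosome 12 from 5206801 to 5217600 one of 754 reads was 623 kb away. On chromosome 16 from 9945001 to 9955800 one of 630 reads was 419 kb away, with 58.3 reads per kb (53.9 to 63.1). These 4 had between 58.3 and 69.8 reads per kb, from just under the 5th percentile of the group to above its median.

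At the other extreme, the 5 abutting islands with the most reads were on chromosomes 10, 13, 8 and 1. On chromosome 10 an island from 114169801 to 114188400 (1398 reads) met a day 5 island at its right end and had none for 1192 kb on its left. A second on that chromosome, from 91624201 to 91641600 (1094 reads), met one at its left end. The chromosome 13 island from 26241001 to 26256000 (1072 reads) and the chromosome 8 island from 91053001 to 91066200 (1060 reads) met one at the right end. The chromosome 1 island from 159373201 to 159388200 (1024 reads) met one at its left end and had another 4.8 kb from its right end. For such islands, a boundary moved by one grid step would have made them overlapping.

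Myoblast-only islands were spread unevenly over the 18 chromosomes. Chromosome 10 held the most, 111, followed by chromosome 3 with 95 and chromosome 4 with 92, and these 3 chromosomes held 30.8% of the group. Chromosome 10 also had the most per Mb, 0.855. As a share of day 0 islands of 10 to 50 kb, chromosome 9 was highest at 18.97% (13.7 to 25.2%), followed by chromosome 7 at 18.8% (12.2 to 27.1%), chromosome 4 at 17.9% (14.7 to 21.5%) and chromosome 16 at 17.8% (13.1 to 23.4%). These neighbours in the order do not differ beyond their intervals.

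The lowest shares were on chromosome 6 at 5.43% (3.35 to 8.27%), with 20 of 368 islands, and chromosome 13 at 6.63% (4.71 to 9.02%), with 37 of 558. Chromosomes 19, 11, 2 and 17 followed at 7.47%, 7.96%, 7.98% and 8.02%. The interval of chromosome 6 lay below those of chromosomes 3, 4, 5, 7, 8, 9, 10, 12, 16 and 18. The ends of this order depended on the setting. Over the 7 alternatives chromosome 6 was the lowest in 3, chromosome 13 in 3 and chromosome 2 in 1, and the highest was chromosome 7 in 4 and chromosome 9 in 3. Without the islands with fewest reads (25% of each list), chromosome 6 stood at 11.7% and chromosome 13 at 9.5%. Of 126 recomputed chromosome shares, 53 stayed inside the interval of the reported share.

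**Figure D3:**
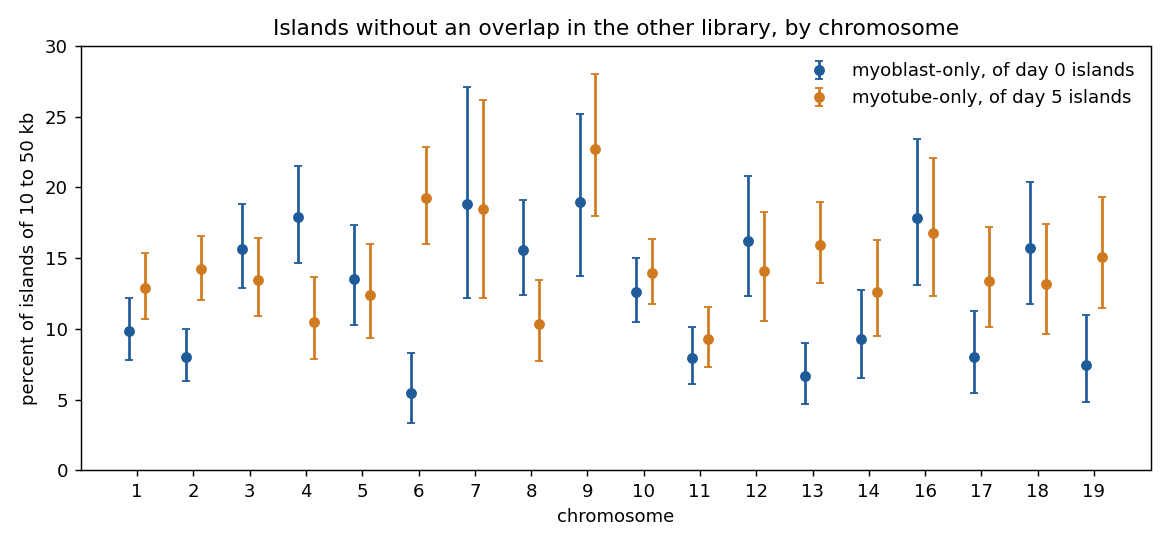
Percent of day 0 islands of 10 to 50 kb that were myoblast-only, and percent of day 5 islands of those widths that were myotube-only, for each of 18 chromosomes; bars are exact 95% intervals. With the full lists the pair of points separates on chromosome 4, where myoblast-only is higher (17.9% against 10.5%), and on chromosomes 2, 6, 13 and 19, where it is lower.

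With the full lists, chromosome 4 was the only one whose myoblast-only share was above its myotube-only share with intervals apart, at 17.9% against 10.5% (7.86 to 13.6%). On 4 chromosomes the myoblast-only share was lower with intervals apart. Chromosome 6 had 20 myoblast-only and 104 myotube-only islands, chromosome 13 had 37 and 107, chromosome 2 had 71 and 139, and chromosome 19 had 23 and 52. Counts of myoblast-only islands exceeded those of myotube-only islands on 6 chromosomes, equalled them on 1 and were smaller on 11. On the 18 chromosomes together the ratio of myotube-only to myoblast-only islands was 1.30. With only the densest day 5 islands kept, down to the covered length of the day 0 list, the ratio turned to 0.851. Its direction thus depends on how the lists are matched. That cut removes day 5 islands only. By construction it can only add myoblast-only islands, remove myotube-only ones and lower the ratio. With the cut, myoblast-only islands were the more numerous on 13 chromosomes and the fewer on 5, a shift whose direction the cut fixes. Chromosome 6 alone had the lower myoblast-only share with intervals apart, at 6.25% (4.003 to 9.23%) against 16.4% (13.2 to 19.9%). Chromosomes 3, 4, 8, 12 and 18 had the higher one, with chromosome 4 at 20.4% (17.02 to 24.2%) against 8.41% (5.99 to 11.4%). Only chromosomes 4 and 6 thus stood apart in the same direction in both comparisons. The cut can only raise a myoblast-only share, so the comparisons are not independent. The intervals also treat neighbouring islands of 1 library as independent, so intervals apart are a description and not a test.

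Chromosomes with sparser day 0 coverage had higher myoblast-only shares. Across the 18 chromosomes, the share and the percent of the span covered at day 0 correlated negatively (Pearson -0.56, Spearman -0.67). Chromosome 7, with 2.90% of its span covered, and chromosome 9, with 6.28%, were at the high end of the share. Chromosomes 11 and 2, with 19.6% and 15.3% covered, were at the low end. Chromosomes 6 and 10 went against this order. Chromosome 6 had 8.95% covered and the lowest share, and chromosome 10, the most covered at 21.8%, had a share of 12.6%, above that of the whole group of chromosomes. Sparse maps meet each other less often whatever their content, and the part of that in the order was not tested.

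The share differed little along the chromosomes. With each span cut into 3 equal parts, the share was 12.7% (11.4 to 14.2%) in the first part, 11.2% (10.1 to 12.4%) in the second and 11.1% (10.0 to 12.2%) in the last.

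The surroundings of myoblast-only islands were less covered at day 5 than at day 0. Over 500 kb on either side, the island itself left out, day 0 islands covered a median of 22.6% (21.4 to 23.6%) and day 5 islands 17.96% (17.2 to 19.1%). Day 5 coverage was the lower of the pair around 679 of 969 (70.1%). Around overlapping day 0 islands of the same widths the medians were 27.2% and 28.2%, with day 5 lower around 44.0%. Around myotube-only islands they were 12.8% at day 0 and 18.9% at day 5, with day 5 lower around 18.9%. Islands of a neighbourhood share their flanks, and many myoblast-only islands have others of their kind within the same 500 kb. Those others count toward day 0 coverage alone by definition, so the lower day 5 coverage is partly built in. The same holds in reverse around myotube-only islands.

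**Figure D4:**
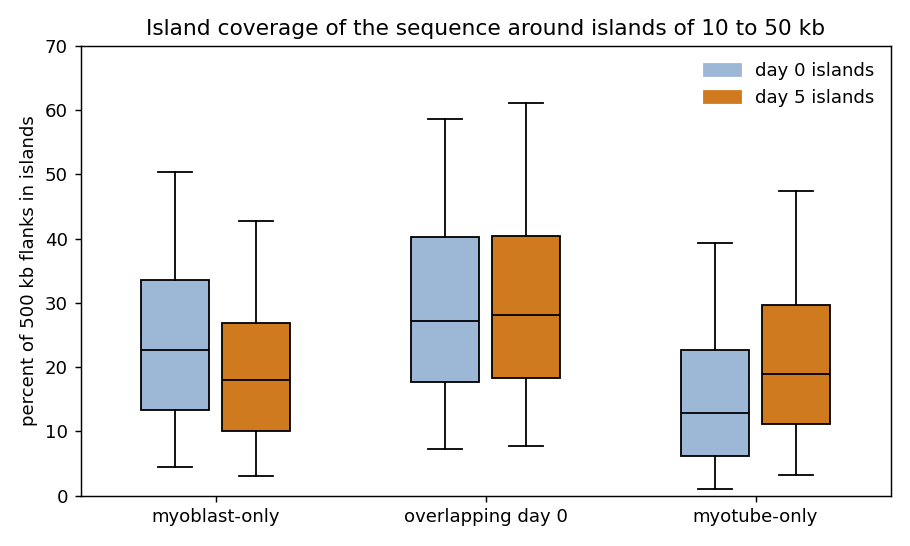
Percent of the 500 kb on either side covered by day 0 islands and by day 5 islands, around myoblast-only islands, overlapping day 0 islands and myotube-only islands of 10 to 50 kb, each island's own span left out. Lines are medians, boxes quartiles and whiskers the 5th and 95th percentiles. Day 5 coverage sits below day 0 coverage around myoblast-only islands (17.96% against 22.6%) and above it around myotube-only islands.

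The share of myoblast-only islands differed between the extremes of local coverage. With day 0 islands split into 4 equal groups by day 0 coverage of their flanks, 16.6% (15 to 18.2%) were myoblast-only in the least covered group (up to 17.1%). The middle groups were alike, at 11.6% (10.2 to 13.0%) and 11.04% (9.73 to 12.5%). In the group with the most covered flanks (39.4% and more) the share was 7.13% (6.06 to 8.31%). Sparse maps meet each other less often here too, and the part of that was not tested.

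Myoblast-only islands often had neighbours of the same kind. Of the 969, 388 (40.0%, 36.9 to 43.2%) had another within 100 kb, and the median distance to the next was 185 kb (157 to 232). For 282 (29.1%, 26.3 to 32.1%) the nearest other day 0 island of 10 to 50 kb was also myoblast-only. For the overlapping islands the nearest one was myoblast-only in 8.33% (7.71 to 8.99%), and the share over all these islands is 11.6%. Myotube-only islands showed a similar figure, 32.3% against 9.21%.

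Immediate neighbours of any width gave the same picture. The day 0 islands on both sides also lacked a day 5 overlap for 293 myoblast-only islands (30.2%), and on 1 side for 428 (44.2%). Both neighbours overlapped a day 5 island for 248 (25.6%). For overlapping islands of the same widths, both neighbours lacked an overlap in 5.49% and neither did in 69.3%. Of all day 0 islands of any width on these chromosomes, 72.3% overlapped a day 5 island and 7576 did not. Most myoblast-only islands were therefore next to at least 1 other day 0 island that no day 5 island touched. Part of that is given by the number of such islands.

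Runs of adjacent day 0 islands without a day 5 overlap numbered 791 where they held at least 1 myoblast-only island of 10 to 50 kb. Runs of 5 or more islands numbered 150, and 271 of the 969 islands (28.0%) were in them. The longest run by number of islands was on chromosome 17 from 48229201 to 50632200, with 26 islands in 2403 kb. Its islands covered 6.64% of that span, 3 of them were of 10 to 50 kb, and 5 myotube-only islands lay between them.

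More compact was the run on chromosome 11 from 31296001 to 31714200. There, 17 islands, 5 of them of 10 to 50 kb, covered 33.7% of 418 kb and held 9552 reads, with no day 5 island inside. On chromosome 10 from 8307601 to 9925800, 16 islands covered 9.60% of 1618 kb, with 1 day 5 island. On chromosome 1 from 187365001 to 188061600, 16 islands, 6 of them of 10 to 50 kb, covered 20.9% of 697 kb, with 3 day 5 islands inside. The fifth run, on chromosome 3 from 146335201 to 147303600, had 14 islands over 968 kb. These 5 runs thus ranged from scattered islands over 6.64% of the span to a run with 33.7% of its span covered at day 0.

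In windows of 1 Mb, 570 windows held a myoblast-only island, of 1440 that held any day 0 island of 10 to 50 kb on these chromosomes. Windows with 3 or more numbered 93 and held 365 of the 969 islands (37.7%). In 86 of those 93 windows the covered length was smaller at day 5 than at day 0. Over all 1440 windows that was so in 44.2%. Myoblast-only islands count toward day 0 coverage by definition, so a smaller day 5 length is partly built in.

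The window with the most was on chromosome 14 from 78 to 79 Mb, with 8 myoblast-only islands among 22 of 10 to 50 kb. Their summed width was 128 kb. Their widths ran from 10.2 to 32.4 kb and their densities from 59.1 to 74.4 reads per kb. A chain of 3, from 78467401 to 78481200, from 78488401 to 78502800 and from 78507001 to 78539400, had gaps of 7.2 kb and 4.2 kb, with 74.2, 72.8 and 74.4 reads per kb. Covered length in the whole window was 545 kb at day 0 and 393 kb at day 5. With islands within 5 kb merged the window held 1 island that met the rule, with a minimum of 15 kb it held 2, and with no day 5 island within 10 kb or with floors of 70 reads per kb at day 0 and 77.8 at day 5 it held 5.

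On chromosome 10 from 83 to 84 Mb, 7 myoblast-only islands had a summed width of 124 kb. Of these, 6, the first from 83548801 to 83569200 and the last from 83697001 to 83730000, lay in one stretch of 207 kb between 2 day 5 islands and filled 54.8% of it. No other stretch free of day 5 islands held as many. Their densities were between 65.7 and 81.5 reads per kb, the widest island being the densest of them. Covered length in the window was 406 kb at day 0 and 140 kb at day 5. Merging islands within 5 kb left 4 in this window that met the rule, and a minimum of 15 kb left 3.

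**Figure D5:**
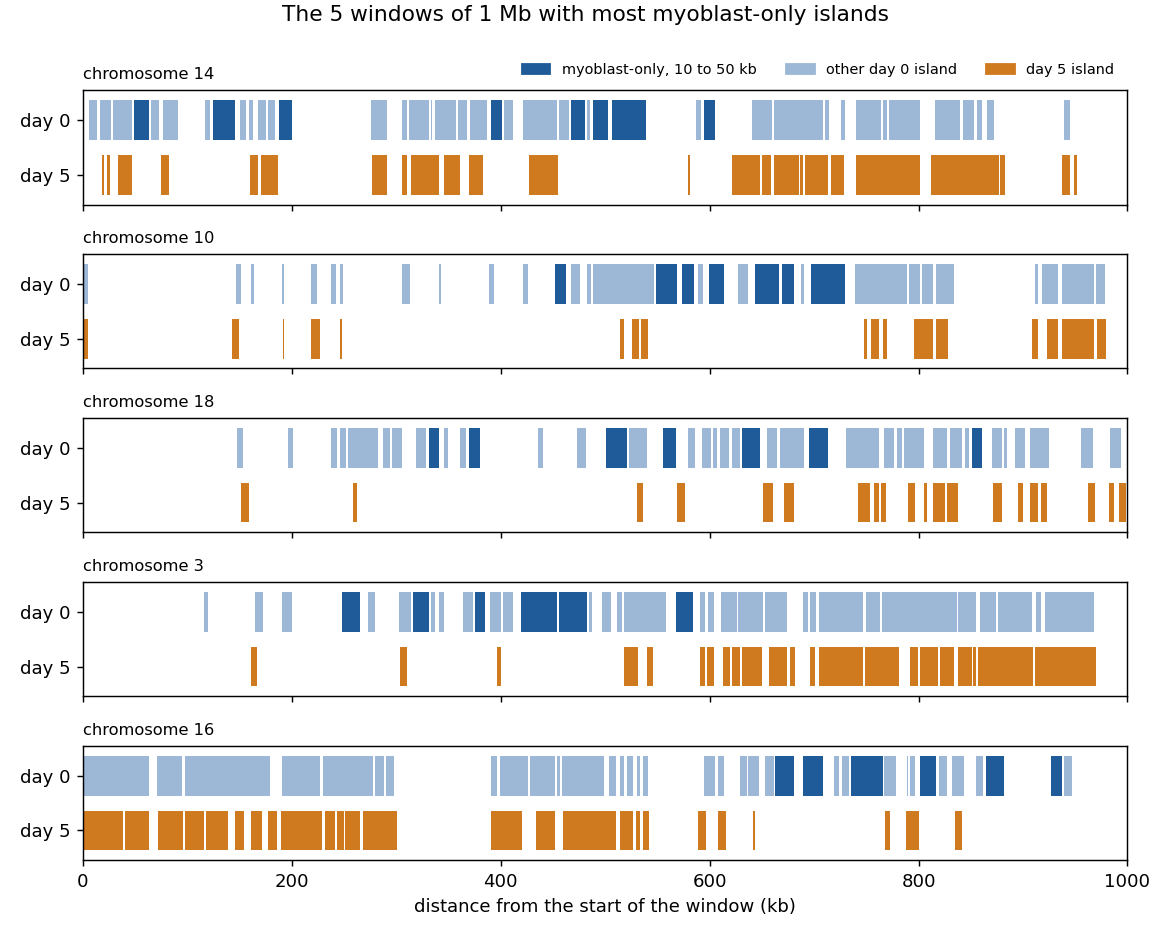
Islands of day 0 (upper track) and day 5 (lower track) in the 5 windows of 1 Mb with most myoblast-only islands, by distance in kb from the start of the window; dark blue marks the myoblast-only islands of 10 to 50 kb. The chromosome 10 window shows 6 of them in 1 stretch without a day 5 island, while in the other windows day 5 islands lie among them.

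On chromosome 18 from 54 to 55 Mb, 7 myoblast-only islands had a summed width of 99 kb. They included the fifth densest of the whole group, at 87.4 reads per kb, while the least dense of the 7 had 62.9. Day 5 islands were scattered among them, at distances of 1.2 to 106.8 kb, and covered 142 kb of the window against 440 kb at day 0. The window held 3 with islands within 5 kb merged, 3 with a minimum of 15 kb and 4 with no day 5 island within 10 kb.

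On chromosome 3 from 21 to 22 Mb, 6 had a summed width of 121 kb, at 66.8 to 81.8 reads per kb. A pair of these, from 21419401 to 21453600 and from 21455401 to 21483000, were parted by 1.8 kb, the smallest distance between islands of a list. Day 0 islands covered 580 kb of the window and day 5 islands 344 kb. It held 2 such islands when islands within 5 kb were merged.

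On chromosome 16 from 30 to 31 Mb, 6 had a summed width of 110 kb. Among them was one of 30 kb from 30735601 to 30765600 with 2334 reads. A day 5 island lay 2.4 kb from it. The densities of the 6 ran from 62.3 to 77.8 reads per kb, and with floors of 70 reads per kb at day 0 and 77.8 at day 5 this window held 1 island that met the rule. Covered length went from 608 kb to 419 kb. In all, 5 windows held exactly 6, and the chromosome 3 and chromosome 16 windows were named for the larger length of their islands.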

How the data were processed

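MacroH2A ChIP-seq libraries of C2C12 cells were analysed from island lists. Per the submitters' processing notes, the tools included SICER 1.1, Bowtie2 2.2.6, MACS 1.4.2 and CASAVA 1.4 and the build was mm9 (NCBIM37), with no role given for any tool. SICER-style settings stand in the list names: 600 bp windows, 1200 bp gaps and a false discovery rate of 0.01. The deposited value is an unscaled read count per island. Use of input as control and treatment of duplicates are not given in the sources used here.

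Starts and ends were read as inclusive and shifted to count from 1. Overlap, distance to the nearest island of the other list, neighbours, runs, coverage of 500 kb flanks and 1 Mb windows were computed. Libraries numbered 1 per group, so no test was made. Regions were named by rule: among myoblast-only islands the 5 widest, with most reads, densest, farthest and nearest (ties by reads), the 5 windows with most of them (ties by length) and the 5 runs with most islands. The group and these lists were chosen with earlier results of these data known. Overlap code was checked on 2000 simulated islands, all placed correctly. Gene lists were not used, since the gene and promoter tables were of GRCm38. Alternatives are given in the closing section. Tools were matplotlib 3.10.9, SciPy 1.17.1, pandas 2.3.3, NumPy 2.4.6 and Python 3.11.15.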

Additional observations from a re-analysis of the deposited data

How the results depend on the processing

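Of 54 recomputed values for the main results, 24 stayed within tolerance (the interval of the reported value, or 1.5 times for counts), 29 moved and 1 reversed. All settings of the ratio of myotube-only to myoblast-only islands, of the chromosome counts and shares and of the window counts were chosen after seeing the data. That ratio reversed to 0.851 with the densest day 5 islands to equal covered length (down to 69.2 reads per kb). Only day 5 islands are removed there, so by construction the ratio could only fall and the myoblast-only share only rise. With that setting 14.2% of day 0 islands were myoblast-only and 43.3% of these had another within 100 kb. Dropping the 25% of islands that held fewest reads removed no day 0 island of 10 to 50 kb. By construction the myoblast-only share could then only rise. That setting gave 16.1% myoblast-only, 67.8 reads per kb, a distance of 16.8 kb and 45.1% with another near. With islands within 5 kb merged they were 14.1%, a density ratio of 0.938 to overlapping islands, 19.2 kb and 32.0%. Requiring no day 5 island within 10 kb left, by construction, 552 islands (6.59%) at 66.8 reads per kb and 28.8 kb, with 35.0% near another. Allowing day 5 islands to cover up to 10% gave, by construction, a higher share, 12.3%. A width minimum of 15 kb left, by construction, fewer islands, 275 (6.54%), at 68.5 reads per kb, with 28.0% near another. Floors of 70 reads per kb at day 0 and 77.8 at day 5 gave 19.6%, 73.7 reads per kb, a density ratio of 0.95, 16.8 kb and 44.9%, and by construction the 304 islands (31.4%) at 70 or more reads per kb remained. Density ratios within widths of 10 to 15 and 15 to 20 kb were 0.929 and 0.923. Counting neighbours within 50 kb and 500 kb gave, by construction, a lower share of 27.6% and a higher one of 66.9%. The density ratio was below 1 under every alternative run, all of which start from the same called islands. It therefore does not separate density from the island calling. Where no day 5 island was allowed within 10 kb, the comparison group also held the 417 myoblast-only islands within that distance. For changes not marked as by construction the cause was not tested. Alternatives for genes were not run. No paired analysis was possible because each group has 1 library. Counting error of an island's density ran from 1.83% for most to 4.18% for fewest reads, and variation between cultures was not measured.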
